A study of Mus musculus with 24 samples.

Results

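The enzymes described here build and finish the sugar chains of glycoproteins, glycolipids and proteoglycans in the Golgi apparatus. They were chosen by name: every probe whose annotated gene symbol starts with Galnt, Fut and a digit, St3gal, St6gal, St8sia, B4gal, B3gal, B3gnt, Mgat and a digit, or Chst. This took 189 of 45281 probes, for 98 of 19057 genes with a symbol. Of these 98 genes, 68 were bright enough to be tested, and 30 were detected on fewer than 6 arrays and were not. RNA of whole pituitary glands from 24 mice of a mixed C57Bl6j 129S2SvPas strain, aged 8 weeks, was measured on 24 Illumina bead arrays. There were 4 groups of 6 arrays: wild-type males, Cga-deficient males, wild-type females and Cga-deficient females. The Cga-deficient mice, called mutants below, lack the alpha subunit that thyrotropin, luteinizing hormone and follicle-stimulating hormone share, and the wild types were their littermates. The allele, and which samples were of 1 litter, are not given in the sources used here.

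Pituitary glycoprotein hormones leave the cell with N-linked sugar chains that are trimmed, branched and capped. On luteinizing hormone and thyrotropin many antennae end in N-acetylgalactosamine carrying a sulfate, a cap that the mannose receptor binds and that shortens the time the hormone circulates. On follicle-stimulating hormone most antennae end in galactose and sialic acid, which keep it in the blood longer. The enzyme that adds the N-acetylgalactosamine recognises a stretch of the hormone protein, including the alpha subunit that these mutants lack. Other members of the same families start mucin-type O-linked chains, build gangliosides (sialic acid glycolipids of nerve and endocrine cell membranes) or sulfate the chains of proteoglycans.

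Levels are log2 intensities after background correction and quantile normalization, given as the lowest, median and highest of a group's 6 arrays. Differences are between group means on the same scale, with their standard error, and calls were made in limma where the p-value, adjusted by Benjamini and Hochberg's method across the 12027 genes in the fit, lay under 0.05. Intensities of different probes are not compared. The pituitary hormone genes Gh, Prl and Pomc were detected on every array, with group means of at least 14.40. Cga fell 5.14-fold in mutant males and 4.28-fold in mutant females. Among the marker lists of pituitary cell types, all 5 tested lactotrope markers fell in females and 3 of 5 in males. The lactotrope list's mean lay at 10.19 to 10.42 on wild-type male arrays against 8.22 to 8.68 on mutant male arrays, and at 10.03 to 10.74 against 8.12 to 8.76 in females. Of 6 thyrotrope markers, 5 rose and Cga fell in both sexes, with list means of 10.43 to 10.76 against 11.75 to 12.06 in males and 10.12 to 10.68 against 11.92 to 12.32 in females. Of 6 somatotrope markers, 2 rose and 3 fell in males and 2 rose and 4 fell in females, with list means of 10.50 to 10.95 against 9.95 to 10.17 in males and 10.32 to 10.69 against 9.81 to 10.09 in females. All 7 macrophage and leukocyte markers rose in both sexes, from 7.97 to 8.54 up to 9.34 to 10.10 in males and from 8.25 to 8.77 up to 9.20 to 9.62 in females. Of the other lists, 3 endothelial markers of 7 rose and 2 fell in males (4 and 2 in females), 2 fibroblast markers of 9 rose and 2 fell (5 and 2), 2 folliculostellate markers of 6 rose and 1 fell (1 and 3), and none rose and 1 fell of 3 corticotrope and melanotrope markers (likewise in females) and of 7 posterior lobe markers (2 fell in females). Neither of 2 red blood cell markers was called between genotypes in either sex, while both were lower in wild-type females than in wild-type males. The wild-type male arrays also had a wider background signal (mean SD 19.0) than the other groups (10.3 to 11.3). With arrays of wide and narrow background as a block, 37 members passed in males (54.4%, against 39.0% of all genes) and 38 in females (55.9%, against 42.5%). The wide arrays were all 6 of the wild-type males, 1 of the mutant males, 4 of the wild-type females and 1 of the mutant females. In males the block thus nearly follows genotype, and a call lost with it does not tell background from genotype. Within the arrays of high and of low background level, all 47 members called in males and all 42 called in females kept their sign. Level is another measure than spread: 4 wild-type and 3 mutant male arrays were of high level, and 2 and 3 of low level. The kept signs therefore do not address the wide background of wild-type males. The calls came from these same arrays, so a kept sign is no independent test, and no share over all genes is given beside it.

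In mutant males 21 of the 68 tested members rose and 26 fell, and in mutant females 19 rose and 23 fell. The members called were 69.1% in males, where 51.5% of all genes were called, and 61.8% in females, where 48.3% were. The median difference over the members was -0.07 in males and 0.03 in females, against -0.01 and -0.03 over all genes. The median size of a difference, either way, was 0.51 in males and 0.45 in females, against 0.29 and 0.27 over all genes. At least a 2-fold call was reached by 12 members in males (5 higher and 7 lower), where 9.60% of all genes reached it, and by 13 in females (6 higher and 7 lower), where 8.02% did. Mutant and wild-type arrays did not overlap for 34 members in males, where this held for 30.7% of all genes, and for 24 in females, where it held for 23.6%. Across both sexes 15 members rose in both and 16 fell in both, together against 32.3% of all genes. Mgat1 and Mgat5 changed in opposite directions, which 1.10% of all genes did. Averaged over the sexes 20 members rose and 24 fell (64.7%), where 60.2% of all genes were called (28.1% higher and 32.2% lower). A further 14 of the 68 were called in males only, 9 in females only and 12 in neither. Of all 12027 genes, 2186 were called in males only, 1797 in females only and 4033 in neither. Such counts by themselves do not show that the sexes differ.

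**Figure D1:**
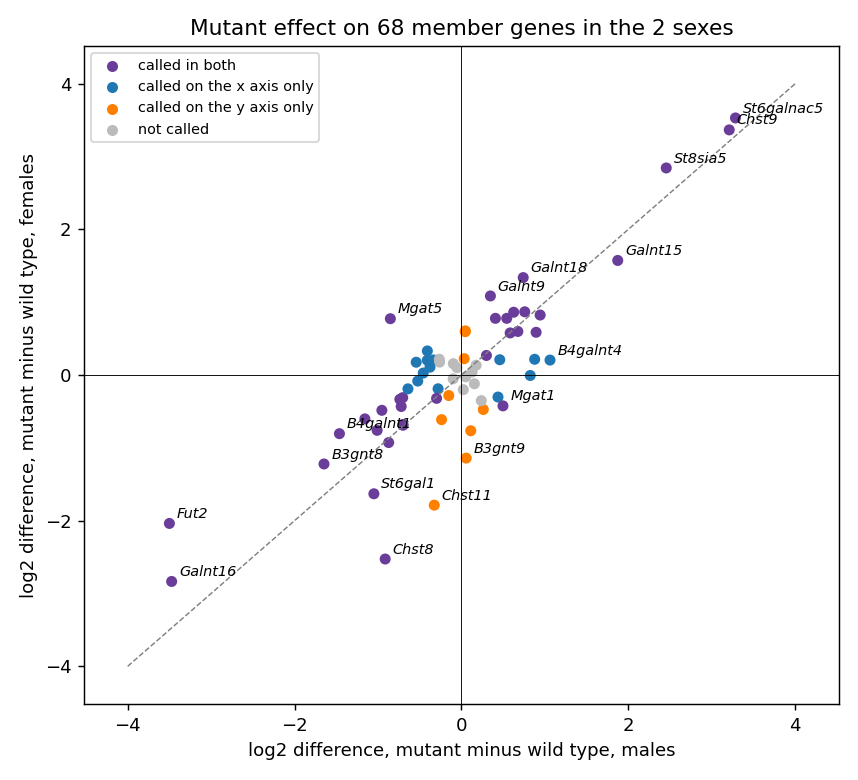
Mutant minus wild-type log2 difference of each of the 68 tested members in males (horizontal axis) and females (vertical axis), with 1 dot per gene, coloured by whether the gene was called in both sexes, in 1 or in neither. The members with the largest differences lie in the same quadrant in both sexes, with Chst9 and St6galnac5 at the top right and Fut2 and Galnt16 at the bottom left, while Mgat5 (-0.85 in males, 0.77 in females) lies at the top left and Mgat1 (0.50 and -0.42) at the bottom right.

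Of the 4 enzymes that make the sulfated N-acetylgalactosamine cap, all were called in males (2 higher and 2 lower) and 2 in females (1 each way). Chst8 and Chst9 encode the 2 sulfotransferases that put sulfate on position 4 of the terminal N-acetylgalactosamine, and they moved in opposite directions. Chst8 measured 10.89 to 11.32 (median 11.14) in wild-type males and 9.56 to 10.83 (median 10.29) in mutant males. In females it measured 12.33 to 13.02 (median 12.82) in wild types and 9.70 to 10.98 (median 10.21) in mutants. Every mutant array lay below every wild-type array of its sex, and wild-type females stood above all other groups, while the mutants of both sexes overlapped. Chst8 thus fell by 0.91 ± 0.20 on the log2 scale in males (1.88-fold; adjusted p = 0.00055) and by 2.53 ± 0.20 in females (5.76-fold; adjusted p = 1.3e-10). The fall was larger in females by 1.61 ± 0.29 (adjusted p = 0.00052). In whole glands, fewer cells of a type and less RNA per cell cannot be told apart. Of 6 gonadotrope markers, 1 rose and 2 fell in males, and 2 rose and 2 fell in females, with list means of 8.74 to 9.19 and 8.45 to 8.96 on wild-type and mutant male arrays and 8.11 to 8.80 and 8.22 to 8.60 on female arrays. The part that such markers, or those of lactotropes, somatotropes, thyrotropes and macrophages, have in the members' differences was not tested.

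The window before the start of Chst8 is shown because this hormone sulfotransferase was detected on every array and differed in both genotype comparisons and between the wild-type sexes. It covers the 250 bases before the annotated start (GRCm38.p6, RefSeq) at chr7:34812712-34812961 on the minus strand. Capitals mark GC boxes (GGGCGG or its complement CCGCCC).
Chst8: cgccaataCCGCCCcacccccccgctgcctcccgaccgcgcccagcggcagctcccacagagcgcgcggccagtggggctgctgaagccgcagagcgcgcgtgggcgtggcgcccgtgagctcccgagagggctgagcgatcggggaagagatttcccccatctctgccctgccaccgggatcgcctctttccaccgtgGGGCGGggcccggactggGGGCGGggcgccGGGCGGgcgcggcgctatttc
The window holds 4 GC boxes, the nearest 21 to 16 bases and the farthest 242 to 237 bases before the start. A GC box occurred in 32.7% of all 32851 promoter windows in the table and in 53.8% of the 65 windows of tested members, which belong to 48 genes. Each window was searched on both strands for 9 motifs: the cAMP response element TGACGTCA, the AP-1 site TGANTCA, the steroidogenic factor 1 site CAAGGTCA, the nuclear receptor half-site AGGTCA (also contained in the site before it), the estrogen response element, the GATA site AGATAA, the GC box, the TATA box TATAAA and the E-box CAGCTG. None of the other 8 motifs had a match in the Chst8 window, which says only that these letters are not there.

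Chst9 was not detected on any wild-type male array, where it read 4.70 to 4.92 (median 4.88), and measured 7.78 to 8.36 (median 8.06) in mutant males. In females it was detected on 1 of 6 wild-type arrays, with values of 4.81 to 5.61 (median 4.88), and measured 7.90 to 8.93 (median 8.34) in mutants. All 12 mutant arrays stood above all 12 wild-type arrays. Since the wild-type signal was at background, Chst9 was at least 5.42-fold higher in mutant males (adjusted p = 2.0e-15) and at least 7.58-fold higher in mutant females (adjusted p = 7.6e-16). These bounds set the mutant mean against the higher of the probe's own signal and the lowest signal detected on each wild-type array.

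B4galnt3 and B4galnt4 encode the enzymes that add the N-acetylgalactosamine to which the sulfate is attached. B4galnt4 measured 5.88 to 6.81 (median 6.69) in wild-type males and 7.41 to 7.80 (median 7.62) in mutant males, and 6.80 to 7.45 (median 7.15) in wild-type and 6.91 to 7.58 (median 7.40) in mutant females. The male groups did not overlap and the female groups did. It rose 2.09-fold in males (log2 difference 1.06 ± 0.15; adjusted p = 1.8e-06), and the difference was 0.21 ± 0.15 in females (adjusted p = 0.27). The test of the difference between the sexes gave -0.86 ± 0.21 (adjusted p = 0.0088), which was -0.41 (adjusted p = 0.086) when all kept probes of the gene were averaged. The 2 dimmer B4galnt4 probes differed by 0.25 and 0.32 in males and were not called (adjusted p = 0.099 and 0.076 over all kept probes).

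B4galnt3 lay near background. It was detected on 3 wild-type male arrays (all 6 at 5.37 to 6.01, median 5.71), 0 mutant male arrays (4.94 to 5.18, median 5.05), 3 wild-type female arrays (4.92 to 5.56, median 5.25) and 1 mutant female array (4.79 to 5.27, median 5.11). The male groups did not overlap. Against the bound described for Chst9 it was 1.38-fold lower in mutant males (adjusted p = 0.00011). The wild-type male mean includes undetected arrays, so this fold is not a strict lower bound. With every signal raised to 1 common floor, the highest of the arrays' lowest detected signals (5.79), the male difference was -0.05 (adjusted p = 0.097). In females the difference was -0.19 ± 0.12 (adjusted p = 0.22), and -0.43 with arrays scaled to their 75th percentile (adjusted p = 0.0055).

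**Figure D2:**
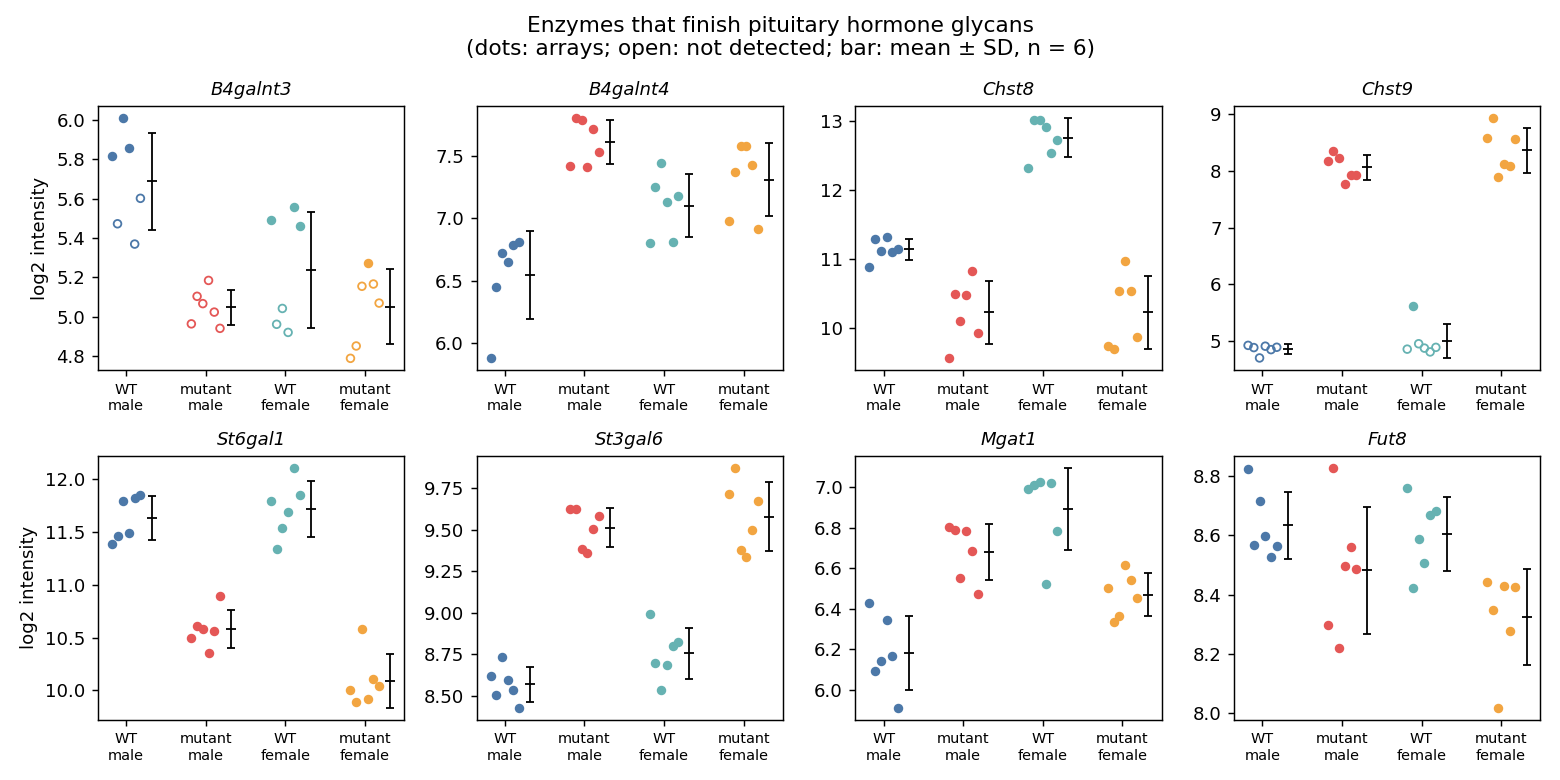
Log2 intensity of 8 enzymes of hormone sugar chains on each array, by group (WT, wild type), with filled dots for detected signals, open dots for signals not detected, and a bar at the mean ± SD of 6 arrays. The panels have different vertical ranges. Chst8 is highest in wild-type females and overlaps between the mutants of both sexes, and Chst9 is near background in wild types and at 7.78 to 8.93 in mutants.

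Among 8 tested enzymes that put sialic acid on glycoproteins, 2 rose and 3 fell in males, and 1 rose and 3 fell in females. St6gal1 adds sialic acid to terminal galactose in the alpha 2,6 linkage. It measured 11.38 to 11.85 (median 11.64) in wild-type and 10.35 to 10.89 (median 10.57) in mutant males, and 11.34 to 12.11 (median 11.74) in wild-type and 9.89 to 10.58 (median 10.02) in mutant females. The mutants lay below the wild types without overlap in both sexes, and the wild types of both sexes overlapped. St6gal1 fell 2.07-fold in males (log2 difference -1.05 ± 0.13; adjusted p = 1.6e-07) and in females 3.10-fold (-1.63 ± 0.13; adjusted p = 7.6e-11). The difference between the sexes was -0.58 ± 0.18 (adjusted p = 0.033), a call lost without any of 7 single arrays (adjusted p = 0.050 to 0.065). A dimmer St6gal1 probe, detected on 12 arrays, fell by 1.16 in females and differed by -0.16 in males (adjusted p = 0.40).

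St3gal6, which adds sialic acid to galactose in the alpha 2,3 linkage, went the other way. It measured 8.43 to 8.73 (median 8.56) in wild-type and 9.36 to 9.62 (median 9.54) in mutant males, and 8.53 to 8.99 (median 8.75) in wild-type and 9.34 to 9.87 (median 9.58) in mutant females. All mutant arrays lay above all wild-type arrays. The rise was 1.92-fold in males (log2 difference 0.94 ± 0.09; adjusted p = 4.5e-09) and in females 1.77-fold (0.82 ± 0.09; adjusted p = 5.5e-08), and a second probe rose by 0.94 and 0.76. St3gal2, which caps the core of O-linked chains and gangliosides, fell 1.65-fold in males and 1.35-fold in females without overlap in either sex. St3gal4, a further alpha 2,3 enzyme, fell 1.70-fold in females (adjusted p = 0.0024), while the male difference was 0.11 ± 0.20. St3gal1, an O-linked core enzyme, fell 1.30-fold in males, and St6galnac4, which adds sialic acid to the N-acetylgalactosamine of O-linked chains and glycolipids, rose 1.84-fold in males. The St3gal1 call was lost without mutant male 2, mutant male 3 or wild-type male 4 (adjusted p = 0.053 to 0.078) and with the background block (0.288). St3gal3 and St6galnac2 were not called in either sex.

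Of 7 tested enzymes that branch N-linked chains or add their core fucose, 2 rose and 3 fell in males, and 2 rose and 4 fell in females. Mgat1 adds the N-acetylglucosamine that starts a complex chain. It measured 5.91 to 6.43 (median 6.16) in wild-type and 6.48 to 6.80 (median 6.74) in mutant males, and 6.52 to 7.03 (median 7.00) in wild-type and 6.34 to 6.62 (median 6.48) in mutant females. The male groups did not overlap, and 1 wild-type female array fell within the range of the mutant females. Mgat1 rose 1.41-fold in males (log2 difference 0.50 ± 0.10; adjusted p = 0.00013) and fell 1.34-fold in females (-0.42 ± 0.10; adjusted p = 0.00087), a difference of -0.92 ± 0.14 (adjusted p = 7.5e-05). A second, dimmer Mgat1 probe differed by 0.01 in males and -0.02 in females and was not called, so the change rests on 1 of 2 probes.

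Mgat5, which opens the beta 1,6 branch, was the reverse. It measured 7.79 to 8.04 (median 7.84) in wild-type and 6.51 to 7.38 (median 7.16) in mutant males, and 5.36 to 7.02 (median 6.81) in wild-type and 7.00 to 7.67 (median 7.31) in mutant females. The wild-type males stood above all other groups' arrays, and 1 wild-type female array was not detected, at 5.36. Mgat5 fell 1.80-fold in males (log2 difference -0.85 ± 0.20; adjusted p = 0.0010) and was at least 1.70-fold higher in mutant females (0.77 ± 0.20; adjusted p = 0.0026). The difference between the sexes was 1.63 ± 0.29 (adjusted p = 0.00043).

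Fut8 adds the core fucose. Its levels were 8.53 to 8.83 (median 8.58) in wild-type and 8.22 to 8.83 (median 8.49) in mutant males, and 8.42 to 8.76 (median 8.63) in wild-type and 8.02 to 8.44 (median 8.39) in mutant females. The groups overlapped in both sexes. The difference was -0.15 ± 0.10 in males (adjusted p = 0.19) and -0.28 ± 0.10 in females (1.22-fold lower; adjusted p = 0.018). The female call was lost without mutant female 3 (adjusted p = 0.057) and with the background block (0.064). A dimmer Fut8 probe, detected on 16 arrays, rose by 0.50 in males (adjusted p = 0.0032).

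Mgat4a, which opens the beta 1,4 branch, rose 1.33-fold in males and 1.72-fold in females without overlap, while its close relative Mgat4b fell 1.23-fold and 1.25-fold. Leaving out any of 9 single arrays ended the male call of Mgat4b and any of 7 its female call (adjusted p up to 0.135 and 0.102), and the background block ended both (0.188 and 0.079). Mgat3, which adds the bisecting N-acetylglucosamine, was not called in either sex. Mgat4e, a relative of the branching enzymes, was detected on 6 wild-type male arrays (5.67 to 6.65, median 6.25), 1 mutant male array (4.80 to 5.45, median 5.01), 4 wild-type female arrays (5.15 to 5.89, median 5.52) and 0 mutant female arrays (4.78 to 5.13, median 4.89). The mutants lay below the wild types without overlap in both sexes. It was at least 1.91-fold lower in mutant males (adjusted p = 9.7e-08) and at least 1.24-fold lower in mutant females (adjusted p = 0.00075). At the common floor the female difference of Mgat4e was -0.02 (adjusted p = 0.935).

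Among 10 tested enzymes of ganglioside synthesis, 5 rose and 3 fell in males, and 3 rose and 1 fell in females. St6galnac5, which adds a sialic acid to the inner N-acetylgalactosamine of gangliosides, had the smallest adjusted p of the members. It was detected on no wild-type array, where it read 4.62 to 4.93 (median 4.87) in males and 4.54 to 4.82 (median 4.70) in females. It was detected on every mutant array, at 7.71 to 8.33 (median 8.20) in males and 7.97 to 8.46 (median 8.25) in females. Every mutant array stood above every wild-type array. St6galnac5 was at least 5.64-fold higher in mutant males (adjusted p = 6.0e-19) and at least 7.10-fold higher in mutant females (adjusted p = 1.2e-19).

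St8sia5, which adds the outer sialic acids of the most sialylated gangliosides, measured 5.74 to 6.44 (median 6.13) in wild-type and 7.91 to 9.19 (median 8.60) in mutant males. In females it measured 5.46 to 6.20 (median 5.91) in wild types and 8.21 to 9.74 (median 8.60) in mutants. All mutant arrays exceeded all wild-type arrays. It rose 5.49-fold in males (log2 difference 2.46 ± 0.20; adjusted p = 2.0e-10) and in females 7.18-fold (2.84 ± 0.20; adjusted p = 1.4e-11), and a second probe rose by 1.93 and 2.43. St8sia3, an oligosialic acid enzyme of nerve tissue counted here with the ganglioside enzymes, rose 1.23-fold in males and 1.21-fold in females. The male call of St8sia3 was lost with the background block (adjusted p = 0.070), and the female call with the mean of its probes (0.462).

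B4galnt1 adds the N-acetylgalactosamine that all complex gangliosides contain. It measured 6.69 to 7.26 (median 7.17) in wild-type and 5.14 to 5.85 (median 5.67) in mutant males, and 6.02 to 6.56 (median 6.24) in wild-type and 5.15 to 6.12 (median 5.35) in mutant females. The male groups did not overlap and the female groups did. With 5 mutant male and 4 mutant female arrays detected, it was at least 2.74-fold lower in mutant males (adjusted p = 6.4e-09) and at least 1.72-fold lower in mutant females (adjusted p = 6.7e-05), and a second probe fell by 0.65 and 0.42. St3gal5, which makes the first ganglioside, was not called in either sex. B3galt4, which adds galactose after B4galnt1, was not called by its brightest probe, but its second probe rose by 0.49 in males (adjusted p = 0.00047) and 0.47 in females (adjusted p = 0.00071). B4galt5 and B4galt6 make the lactosylceramide on which gangliosides are built. In males B4galt6 fell 1.33-fold, and B4galt5 was at least 1.09-fold higher (adjusted p = 0.012), its wild-type males being detected on 1 array. This B4galt5 call was lost at the common floor, with the background block and with 75th percentile scaling (adjusted p = 0.143 to 0.193). St6galnac6 rose in males (at least 1.76-fold; adjusted p = 1.7e-06), but another of its probes fell there. St6galnac3 was lower in mutant males (1.21-fold, not a strict lower bound, adjusted p = 0.026) and not called in females. It was detected on 2 wild-type male and 4 mutant male arrays. Its male call was lost without mutant male 5, mutant male 6, wild-type male 3 or wild-type male 6 (adjusted p = 0.076 to 0.080), at the common floor (0.073), with the background block (0.0501) and with only the male groups fitted (0.068).

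St8sia4 makes polysialic acid on the neural cell adhesion molecule and was the single tested enzyme of that kind. It rose 1.69-fold in males (log2 difference 0.76 ± 0.13; adjusted p = 3.8e-05) and in females 1.83-fold (0.87 ± 0.13; adjusted p = 7.2e-06), with no overlap in either sex. St8sia2, the other polysialic acid enzyme, was detected on 2 arrays and was not tested.

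**Figure D3:**
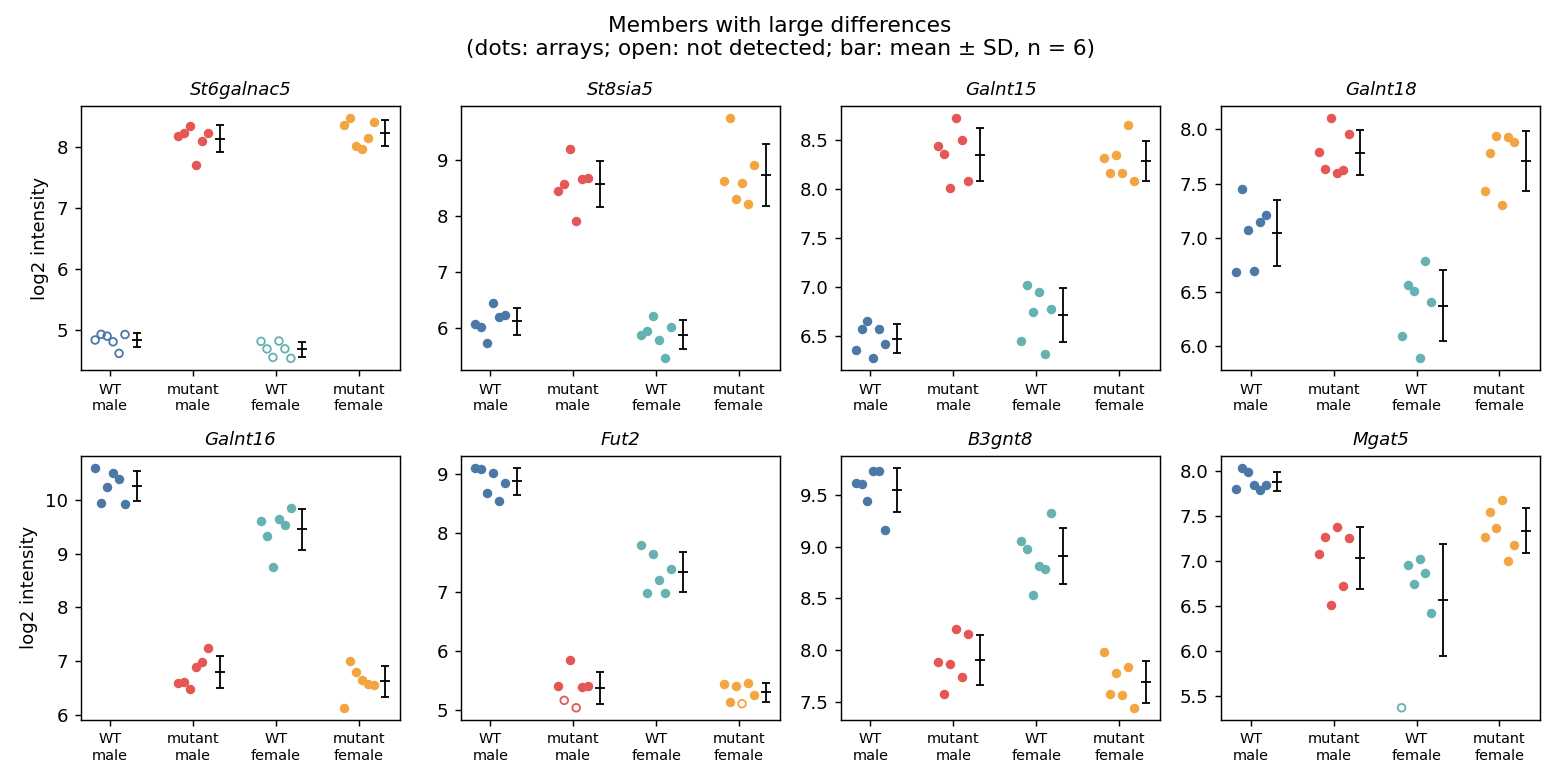
Log2 intensity of 8 members with large differences on each array, by group (WT, wild type), with filled dots for detected signals, open dots for signals not detected, and a bar at the mean ± SD of 6 arrays. The panels have different vertical ranges. In the panels of St6galnac5, St8sia5, Galnt15, Galnt18, Galnt16, Fut2 and B3gnt8 the genotypes do not overlap within either sex, and in the panel of Mgat5 the wild-type males are highest, at 7.79 to 8.04.

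The 12 tested polypeptide N-acetylgalactosaminyltransferases belong to the family that starts mucin-type O-linked chains, and the activity of each was not measured here. Of these 5 rose and 4 fell in males, and 6 rose and 3 fell in females. Galnt16 had the largest fall in females among the members detected on every array, and in males too. It measured 9.93 to 10.60 (median 10.32) in wild-type and 6.47 to 7.25 (median 6.74) in mutant males, and 8.75 to 9.85 (median 9.57) in wild-type and 6.13 to 7.00 (median 6.61) in mutant females. The genotypes were far apart in both sexes. It fell 11.1-fold in males (log2 difference -3.47 ± 0.17; adjusted p = 4.8e-15) and in females 7.13-fold (-2.83 ± 0.17; adjusted p = 3.2e-13). The difference between the sexes was 0.64 ± 0.24 (adjusted p = 0.074).

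Galnt15 measured 6.27 to 6.65 (median 6.49) in wild-type and 8.00 to 8.72 (median 8.39) in mutant males, and 6.32 to 7.02 (median 6.76) in wild-type and 8.08 to 8.65 (median 8.24) in mutant females. All mutant arrays lay above all wild-type arrays. The rise was 3.67-fold in males (log2 difference 1.87 ± 0.13; adjusted p = 4.5e-12) and in females 2.98-fold (1.57 ± 0.13; adjusted p = 1.5e-10), and a second probe rose by 2.31 and 1.89.

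The windows before annotated starts of Galnt16 and Galnt15 are shown as those of the family members with the largest fall and the largest rise. Both are 250 bases (GRCm38.p6, RefSeq) on the plus strand, at chr12:80518221-80518470 for Galnt16 and chr14:32028853-32029102 for Galnt15. Galnt16 has 3 windows in the table, and the one at the gene's own start is printed. The window of Galnt15 does not lie at the start of the gene as annotated but at that of another of its transcripts. Capitals mark motif matches.
Galnt16: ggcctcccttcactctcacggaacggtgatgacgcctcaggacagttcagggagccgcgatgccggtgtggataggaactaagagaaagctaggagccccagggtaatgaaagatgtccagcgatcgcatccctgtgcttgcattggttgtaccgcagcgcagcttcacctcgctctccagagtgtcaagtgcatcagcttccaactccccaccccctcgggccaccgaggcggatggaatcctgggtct
Galnt15: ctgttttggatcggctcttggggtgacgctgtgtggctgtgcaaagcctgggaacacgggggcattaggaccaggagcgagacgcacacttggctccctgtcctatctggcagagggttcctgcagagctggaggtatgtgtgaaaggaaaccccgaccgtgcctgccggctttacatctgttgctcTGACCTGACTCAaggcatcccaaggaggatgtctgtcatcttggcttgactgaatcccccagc
The printed Galnt16 window held none of the 9 motifs, but another of its 3 windows held an AP-1 site 161 to 155 bases before its start. The Galnt15 window held an AP-1 site 58 to 52 bases before the start, a motif found in 6.75% of all windows. It overlaps by 1 base a nuclear receptor half-site on the other strand 63 to 58 bases before the start, found in 14.0% of all windows. These matches are a description and not binding sites.

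Galnt18 and Galnt9 rose in both sexes. Galnt18 measured 6.68 to 7.45 (median 7.11) in wild-type and 7.60 to 8.10 (median 7.71) in mutant males, and 5.89 to 6.78 (median 6.45) in wild-type and 7.31 to 7.93 (median 7.83) in mutant females. Neither sex showed an overlap. It rose 1.67-fold in males, with an adjusted p of 0.00024, and 2.53-fold in females, where it was 6.7e-08, and the difference between the sexes was 0.60 ± 0.22 (adjusted p = 0.066). Galnt9 measured 7.22 to 7.76 (median 7.56) in wild-type and 7.68 to 8.22 (median 7.79) in mutant males, and 6.79 to 7.26 (median 6.93) in wild-type and 7.70 to 8.39 (median 8.02) in mutant females. The female groups did not overlap and the male groups did. It rose 1.27-fold in males, with an adjusted p of 0.017, and 2.12-fold in females, where it was 3.0e-08, a difference of 0.74 ± 0.17 (adjusted p = 0.0046). The male call of Galnt9 was lost without mutant male 3 (adjusted p = 0.052) and with the background spread as a block (0.24; adjusted p = 0.22).

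Among the other family members, Galnt13 rose in both sexes (at least 1.55-fold in males and 1.51-fold in females). Galntl6 was detected on no wild-type array and on 3 mutant male and 4 mutant female arrays. Its rise in females was 1.03-fold against the bound described for Chst9. At the common floor Galntl6 was not called (adjusted p = 0.315 in females). Galnt17 was 1.25-fold higher in mutant females against the same kind of bound (adjusted p = 0.030). This call was lost without mutant female 2 or 6 or wild-type female 2, 3 or 4 (adjusted p = 0.066 to 0.101) and at the common floor (0.113). Galnt10 fell 1.94-fold in males and 1.40-fold in females, and Galnt11 fell 1.63-fold and 1.60-fold. Galnt2, a widely expressed starter of mucin-type chains, fell 1.21-fold in males, a call lost with the background block (adjusted p = 0.216) and with 75th percentile scaling (0.182). Galnt1, the other widely expressed one, was not called (0.05 ± 0.09 in males and -0.02 ± 0.09 in females), although another of its probes fell by 0.28 in females (adjusted p = 0.028).

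Among 14 tested enzymes that extend antennae or proteoglycan linkers with galactose, N-acetylglucosamine or N-acetylgalactosamine, 2 rose and 6 fell in males, and 3 rose and 6 fell in females. B3gnt8, which extends poly-N-acetyllactosamine on branched N-linked chains, measured 9.17 to 9.73 (median 9.61) in wild-type and 7.57 to 8.21 (median 7.87) in mutant males. In females it measured 8.53 to 9.33 (median 8.90) in wild types and 7.44 to 7.98 (median 7.68) in mutants. Neither sex showed an overlap. It fell 3.13-fold in males (log2 difference -1.65 ± 0.13; adjusted p = 8.1e-11) and in females 2.33-fold (-1.22 ± 0.13; adjusted p = 2.2e-08), and a second probe fell by 1.60 and 1.30.

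B3gnt9, a relative of B3gnt8, measured 9.50 to 9.91 (median 9.67) in wild-type and 9.54 to 9.89 (median 9.81) in mutant males, and 10.34 to 11.04 (median 10.65) in wild-type and 9.18 to 9.75 (median 9.57) in mutant females. The wild-type females stood above all other groups. It fell 2.20-fold in females (log2 difference -1.14 ± 0.11; adjusted p = 7.3e-09), differed by 0.06 ± 0.11 in males (adjusted p = 0.69), and the difference between the sexes was -1.20 ± 0.16 (adjusted p = 2.1e-05). Its 4 kept probes disagreed. Another fell by 0.89 in females, the next brightest differed by 0.04 there, and the dimmest fell by 0.53 in males.

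B4galt1, the main galactosyltransferase of N-linked chains, fell 1.44-fold in males (adjusted p = 1.7e-05) and its brightest probe differed by -0.08 ± 0.09 in females, where a second probe fell by 0.35 (adjusted p = 0.0076). B4galt3 fell 1.53-fold in females. B4galt4 was detected on no wild-type array and on 4 mutant male and 5 mutant female arrays. Against the bound described for Chst9 it was 1.06-fold higher in mutant females (adjusted p = 0.00033), which the common floor ended (adjusted p = 0.343). B3galt1, which adds galactose in the beta 1,3 linkage, rose in both sexes (at least 1.54-fold in males and 1.82-fold in females), and B3galt5, which does the same, fell 1.37-fold in males. B3gnt7, a keratan sulfate enzyme, was lower in mutants of both sexes (1.73-fold in males and 1.67-fold in females). So was B3gnt3, an extender of O-linked cores (1.51-fold and 1.06-fold). The wild-type means of both genes include undetected arrays, so these folds are not strict lower bounds. B3galnt2, which acts on alpha-dystroglycan, fell 1.63-fold and 1.24-fold, and B3galnt1, the globoside enzyme, rose 1.17-fold in females. The background block ended the male calls of B3galt1 (adjusted p = 0.187) and B3galt5 (0.468), and the common floor the female calls of B3gnt7 (0.128) and B3gnt3 (1). Single arrays decided 4 of these calls: B3galt5 in males was lost without any of 8 (adjusted p up to 0.089), B3galnt2 in females without any of 7 (up to 0.109), B3galnt1 without mutant female 1 or wild-type female 4 (0.064 and 0.065), and B3gnt3 in females without mutant female 4 or wild-type female 5 (0.057 and 0.059). B4galt7 and B3galt6, which build the link between proteoglycan and chain, were not called, and neither was B3gntl1.

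Fut2, the fucosyltransferase that makes the H antigen, was far lower in the mutants of both sexes. It measured 8.53 to 9.09 (median 8.92) in wild-type and 5.03 to 5.84 (median 5.39) in mutant males, and 6.97 to 7.79 (median 7.29) in wild-type and 5.10 to 5.45 (median 5.32) in mutant females. The wild-type males were highest, the wild-type females next, and the mutants of both sexes were near background, with 4 and 5 of 6 arrays detected. Fut2 was at least 11.0-fold lower in mutant males (adjusted p = 1.2e-16) and at least 4.07-fold lower in mutant females (adjusted p = 7.9e-12). The difference between the sexes was 1.46 ± 0.20 (adjusted p = 2.6e-05). Of the other 3 tested fucosyltransferases apart from Fut8, Fut4, which makes Lewis X, rose 1.38-fold in males. Fut10 fell 1.39-fold in females, although its probes gave calls in opposite directions in males and its call was lost without any of 6 single arrays (adjusted p = 0.057 to 0.112) and with the background block (0.153), and Fut9 was not called.

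Among 8 further carbohydrate sulfotransferases, 1 rose and 4 fell in males, and 2 rose and 3 fell in females. Chst11, which sulfates chondroitin at position 4, measured 5.86 to 6.34 (median 6.13) in wild-type and 5.41 to 6.12 (median 5.72) in mutant males, and 7.19 to 7.91 (median 7.50) in wild-type and 5.41 to 6.14 (median 5.75) in mutant females. The wild-type females stood above every other array. It fell 3.45-fold in females (log2 difference -1.79 ± 0.14; adjusted p = 8.9e-11), and the male difference was -0.33 ± 0.14 (adjusted p = 0.057). The difference between the sexes was -1.46 ± 0.20 (adjusted p = 2.4e-05), and a second probe differed by -1.05 in females and 0.14 in males. The male difference of Chst11 passed without mutant male 2 (adjusted p = 0.033), mutant male 3 (0.025), wild-type male 5 (0.039), mutant female 6 (0.048) or wild-type female 3 (0.0497) in the fit.

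Chst10, which makes the HNK-1 sulfate of nerve cell surfaces, fell 2.01-fold in males, with an adjusted p of 2.2e-09, and 1.69-fold in females, where it was 3.5e-07 without overlap. Chst14, the dermatan sulfate enzyme, was at least 1.56-fold lower in mutants of each sex, a call lost in males at the common floor (adjusted p = 0.095). Chst7, which sulfates chondroitin at position 6, rose in both sexes (at least 1.83-fold in males and 1.50-fold in females). Chst15, which adds a second sulfate to chondroitin, rose 1.52-fold in females (adjusted p = 0.00019). Chst2, which sulfates N-acetylglucosamine, fell 1.26-fold in males, which leaving out any of 5 single arrays ended (adjusted p = 0.061 to 0.105), as did the background block (0.096), and Chst12, a further chondroitin enzyme, was not called.

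Wild-type females and males differed for 34 of the 68 tested members (50.0%), where 27.3% of all genes did, with 11 higher and 23 lower in females. Their arrays did not overlap for 16 members, against 11.1% of all genes, and 5 members were called at 2-fold or more, against 2.19%. The wild-type males had the wider background (mean SD 19.0, against 11.3 in wild-type females). Its part in these differences cannot be told apart from that of sex. Cell type markers differed too. In wild-type females 3 lactotrope markers of 5 were higher and 1 lower, and 1 somatotrope marker of 6 was higher and 4 lower. Of 7 macrophage and leukocyte markers 3 were higher and none lower. Of 6 gonadotrope markers 1 was higher and 2 lower, and of 6 thyrotrope markers none was higher and 2 lower. Chst8 was 3.06-fold higher in wild-type females (log2 difference 1.61 ± 0.20; adjusted p = 2.0e-06), Chst11 2.72-fold higher (1.44 ± 0.14; adjusted p = 3.8e-08) and B3gnt9 1.99-fold higher (0.99 ± 0.11; adjusted p = 5.0e-07). Fut2 was 2.90-fold lower (-1.54 ± 0.14; adjusted p = 1.6e-08), Mgat5 at least 2.48-fold lower (-1.32 ± 0.20; adjusted p = 2.5e-05) and Chst1 2.14-fold lower (-1.10 ± 0.16; adjusted p = 1.7e-05). Chst1, which sulfates the galactose of keratan sulfate, measured 9.99 to 10.98 (median 10.48) in wild-type males, 9.06 to 9.70 (median 9.48) in wild-type females, 9.72 to 10.20 (median 10.02) in mutant males and 9.01 to 10.07 (median 9.69) in mutant females. The wild types of the 2 sexes did not overlap, and the mutants did. Chst1 fell 1.46-fold in males (adjusted p = 0.0073; 0.24 with the background block) and differed by 0.18 ± 0.16 in females.

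Mutant females and males differed for none of the 68 members after adjustment in limma, where 0.0665% of all genes did, and for 6 members (8.82%) at an unadjusted p under 0.05, where 6.22% of all genes did. Arrays of mutant females and males overlapped for all 68, while they did not for 0.258% of all genes. For St6gal1 the overlap rests on mutant female 3, at 10.58. The next highest mutant female array read 10.11 and the lowest mutant male array 10.35. The median size of a sex difference over the members was 0.33 in wild types and 0.11 in mutants, against 0.18 and 0.09 over all genes. The mutant difference was the smaller in size for 52 of the 68, and not for St6gal1, at -0.49 in mutants and 0.09 in wild types. That count was not taken over all genes, whose median size was also smaller in mutants. In mutants the female minus male difference was 0.00 ± 0.20 for Chst8 (95% interval -0.42 to 0.42), -0.02 ± 0.14 for Chst11 (-0.31 to 0.27), -0.08 ± 0.14 for Fut2 (-0.37 to 0.22; detected on 4 and 5 of 6 arrays) and 0.31 ± 0.20 for Mgat5 (-0.11 to 0.72). The difference between these sex differences, which is also that of the mutant effect between the sexes, was called for 19 members (27.9%), where 13.6% of all genes were called. It was above 0 for 9 (a larger rise or smaller fall in females; 7.25% of all genes) and below 0 for 10 (6.36%), and reached 2-fold for 5 (2.34%). The wild-type sex difference and the 2 genotype differences share their wild-type arrays, so they are given here as values only. The mutants did not have the wide background of the wild-type males (mean SD 10.8 in mutant males and 10.3 in mutant females). The part of this background in the gap between wild-type and mutant sex differences was not tested.

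**Figure D4:**
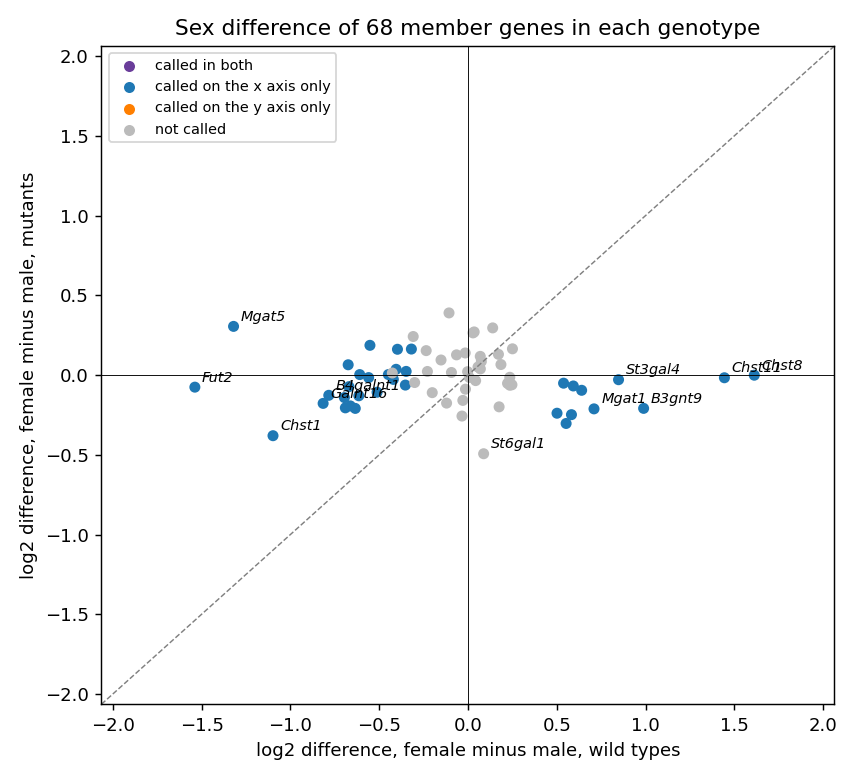
Female minus male log2 difference of each of the 68 tested members in wild types (horizontal axis) and mutants (vertical axis), with 1 dot per gene and blue where the wild-type difference was called. Wild-type differences spread from -1.54 (Fut2) to 1.61 (Chst8). Most mutant differences lie close to the horizontal line at 0, St6gal1 lies at -0.49, and none was called.

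Among 33 members with several kept probes, probes were called in opposite directions for Fut10 and St6galnac6 in males, for no gene in females, and for B3gnt9 between wild-type sexes and in the difference between the sexes. The tested probe was not called while another kept probe was for 8 genes in males (B3galt4, B3gnt9, B3gntl1, B4galt3, Chst15, Fut10, Fut8 and St6galnac2) and 4 in females (B3galt4, B4galt1, Galnt1 and St6galnac2). Tested probe by probe, 62.9% of 116 member probes were called in males and 53.4% in females, against 50.0% and 45.6% of all kept probes with 1 symbol. The 30 untested members included Mgat2, which follows Mgat1 in making complex chains, Fut1, the other H antigen enzyme, and St8sia1, the enzyme of the b-series gangliosides, all detected on 0 arrays. Also at 0 arrays were St6gal2, Galnt4, Galnt5, Galnt6, Galnt7 and Galnt14. Galnt3 was detected on 4 wild-type female arrays and on no other array, Chst3 on 5 arrays, Fut11 on 5 and B4galt2 on 2. A probe below detection sets no level for its gene.

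Genes that feed or act beside these enzymes moved both ways. Of 25 tested genes that make or carry sugar and sulfate donors, 5 rose and 6 fell in males, and 6 rose and 6 fell in females. The share called was 44% in males and 48% in females, against 51.5% and 48.3% of all genes. Slc35c1, which carries GDP-fucose into the Golgi, fell 2.63-fold in males, with an adjusted p of 1.4e-12, and 2.42-fold in females, where it was 9.0e-12. Ugp2, which makes UDP-glucose, rose 1.74-fold and 2.08-fold. Papss2, which makes the sulfate donor of all sulfotransferases, fell 1.87-fold in males (adjusted p = 1.9e-06) and differed by 0.05 ± 0.13 in females, a difference of 0.96 between the sexes (adjusted p = 0.00098), while its partner Papss1 was not called. Slc35a1, the carrier of the sialic acid donor, fell 1.64-fold in females (adjusted p = 0.00015).

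Of 9 genes that trim N-linked chains, 4 rose and 2 fell in males, and 4 rose and none fell in females. The share called was 66.7% in males and 44.4% in females, against 51.5% and 48.3% of all genes. Man1a, a Golgi mannosidase, rose from a group mean of 4.87, detected on 0 arrays, to 7.40 in males and from 5.53, detected on 3 arrays, to 7.57 in females. Prkcsh, a subunit of glucosidase II, rose 1.94-fold and 2.46-fold. Man2a1 and Man2a2, the mannosidases that act after Mgat1, fell 1.51-fold and 1.46-fold in males and were not called in females. Of 9 genes that extend O-linked cores or make O-mannose chains, 5 rose and none fell in each sex (55.6% called in each, against the same shares of all genes). C1galt1c1, the chaperone of the core 1 enzyme, rose 2.10-fold in males and 2.09-fold in females, and Pofut2, an O-fucosyltransferase, rose 1.72-fold and 1.43-fold.

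Of 12 other Golgi sulfotransferases, 5 rose and 5 fell in males, and 4 rose and 2 fell in females. The share called was 83.3% in males and 50% in females, against 51.5% and 48.3% of all genes. Hs6st2, which sulfates heparan at position 6, rose from a group mean of 6.16 to 10.22 in males (adjusted p = 1.6e-17) and from 6.45 to 10.28 in females (adjusted p = 4.6e-17). Hs3st1, which adds the rare sulfate of anticoagulant heparan, rose 2.58-fold and 2.06-fold, and Tpst1, which sulfates tyrosines of secreted proteins, fell 2.23-fold and 1.66-fold. Of 11 genes that bind or remove sugars, 4 rose and 3 fell in males, and 4 rose and 1 fell in females. The share called was 63.6% and 45.5%, against the same shares of all genes. Mrc1, the mannose receptor that binds the sulfated cap and is also a macrophage gene, rose from a mean of 5.67 to 7.02 in males and from 5.72 to 6.96 in females, beside the rise of all 7 macrophage and leukocyte markers. Neu1, the lysosomal sialidase, rose 2.31-fold and 1.88-fold, Glb1, the lysosomal galactosidase, rose 2.32-fold and 1.54-fold, and Neu3, the membrane sialidase of gangliosides, fell by 0.97 and 0.56 on the log2 scale.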

How the data were processed

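RNA of 24 pituitaries was measured on Illumina bead arrays, 500 ng of RNA per sample per the labels' protocols. The authors deposited bead-averaged linear intensity values with detection p-values per probe, not normalized per the file headers, and GenomeStudio 2011.1 is named in the submitters' processing notes. A second deposited table of linear intensity values had nearly equal sorted values on every array, and no source used here states its normalization step. The intensities were background corrected with negative controls inferred from the detection p-values, quantile normalized and log2 transformed (limma 3.58.1 neqc, offset 16, R 4.3.3). Probes with a detection p under 0.05 on at least 6 arrays were kept (23133 of 45281), and the brightest kept probe stood for each gene with 1 symbol (12027 genes). Group means of all 4 groups were fitted together with lmFit and eBayes, with a shared spread and Benjamini-Hochberg adjustment over 12027 genes. The median standard error of a genotype difference was 0.117, and the 6 arrays per group limit the precision. Arrays detected 39.7% to 50.8% of probes. P-values set a difference of group means against the spread between these samples, pooled over the 4 groups and moderated across genes by eBayes. Where a dimmer group had undetected arrays, the fold sets the brighter group's mean against the bound described for Chst9, which was decided with the values known. It is a lower bound only where every array of the brighter group was detected. The pipeline was tested on simulated data. Alternatives covered normalization, background correction, filters, probe choice, array weights, background as a block, a common floor and each array left out.

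The members, their roles and the companion and marker lists were chosen with earlier results of these data known. Members were named in full where they make the hormone cap, sialic acid, branches or core fucose, or had the largest differences, and the rest by count or fold. The 24 columns of bead standard errors were not used.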

Additional observations from a re-analysis of the deposited data

Results flagged for a closer look

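In 22 members described array by array, 88 groups of 6 were checked for an array far from the rest, and 5 arrays were found where chance gives about 4.40 at 1 in 20. B4galnt1 read 5.14 on mutant male 1, the lowest of its group and not detected. Chst9 read 4.70 on wild-type male 3, below detection like the rest of that group, and 5.61 on wild-type female 2, the single wild-type array on which it was detected. Mgat5 read 5.36 on wild-type female 1, not detected. St6gal1 read 10.58 on mutant female 3, the highest of its group.

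The mutant effect differed between females and males for 19 members, by the interaction term of the limma fit. It was higher (a larger rise or a smaller fall) in females for Mgat5 by 1.63 (adjusted p = 0.00043), Fut2 by 1.46 (2.6e-05), Galnt9 by 0.74 (0.0046), St6galnac3 by 0.74 (0.022), Chst1 by 0.72 (0.038), B4galnt1 by 0.66 (0.036), B4galt6 by 0.61 (0.012), Chst15 by 0.56 (0.031) and B4galt1 by 0.44 (0.019), all on the log2 scale. The female minus male difference of the effect was -1.61 for Chst8 (adjusted p = 0.00052), -1.46 for Chst11 (2.4e-05), -1.20 for B3gnt9 (2.1e-05), -0.92 for Mgat1 (7.5e-05) and -0.88 for St3gal4 (0.037). It was -0.86 for B4galnt4 (0.0088), -0.83 for St6galnac6 (0.0015), -0.74 for B4galt5 (0.016), -0.66 for St6galnac4 (0.0018) and -0.58 for St6gal1 (0.033). The values of St6galnac3, detected on 2 wild-type male and 0 wild-type female arrays, and of B4galt5, detected on 1 wild-type male array, rest on signals below detection. At the common floor they were 0.10 (adjusted p = 0.313) and -0.23 (adjusted p = 0.165) and were not called. B4galt1 was not called by its second probe (0.33; adjusted p = 0.136), nor Mgat1 by its second (-0.02; adjusted p = 0.945), nor B4galnt1 by its second (0.23; adjusted p = 0.39).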

How the results depend on the processing

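Under 35 other settings no called member reversed its sign, and each count of called members stayed within 1.5 times its value. The calls came from these same arrays, so a kept sign or call is no independent test. The counts ran from 37 to 50 in males, 35 to 44 in females, 16 to 24 for the difference between the sexes and 29 to 36 between wild-type sexes, and stayed at 0 between mutant sexes. Leaving out each array in turn gave 43 to 48, 38 to 44, 16 to 24 and 33 to 36. Calls held under every setting run for 32 of 47 members in males, 30 of 42 in females, 11 of 19 for the difference between the sexes and 27 of 34 between wild-type sexes. Single arrays ended the difference between the sexes for B4galnt1 (11 arrays), Chst1 (11), St3gal4 (13), St6gal1 (7) and Chst15 (5), with adjusted p of 0.050 to 0.069. Scaling to the 75th percentile kept the sign of every called member, but over all genes the wild-type sex difference went from 1506 higher and 1782 lower to 1858 and 1440, and the difference between the sexes from 872 and 765 to 733 and 961. All-gene calls between mutant sexes went from 8 to 2 when only those groups were fitted. The wide background of wild-type males limits dim members there, and within-half values in males exist for background level only. No paired analysis was possible because the replicate numbers follow accession order and pair no samples. The chip as a block was not run, since no chip is named in the headers. The background level and common floor settings were chosen after seeing the data.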
